A study of Homo sapiens with 12 samples.

Results

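MOLM-13 cells given a menin-MLL1 inhibitor and a FLT3 inhibitor together were compared with cells given the solvent DMSO, across all genes, in 3 libraries against 3. These 6 libraries were chosen by their sample titles from the 12 libraries of the series. The other 6 libraries hold each agent alone, 3 with gilteritinib and 3 with MI-3454, and they are used below to show where both agents together differ from either one. All 12 cultures are of one established line of acute monocytic leukaemia, grown in the same medium with serum and collected after 8 days of treatment.

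MOLM-13 carries a fusion of MLL1 (KMT2A) with AF9 (MLLT3) and an internal tandem duplication in FLT3. MI-3454 blocks the binding of menin to MLL1, gilteritinib is a FLT3 kinase inhibitor, and the combination cultures received both. The sources used here give no doses. The treatment label ends in another number than the compound's name in 2 of the 3 libraries of each group that received MI-3454, and the titles, which name one compound, were followed. Cultures were seeded in triplicate from this single line, and nothing says that they were grown on separate days, so p-values measure the spread between these cultures only.

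The MLL fusion protein needs menin to stay on chromatin, where it keeps genes of a progenitor programme active, among them the HOXA genes and MEIS1. FLT3 with a tandem duplication signals without its ligand and feeds STAT5, the MAPK cascade and PI3K, which hold up MYC, protein synthesis and survival. Loss of the progenitor programme in such cells is commonly read through genes of granulocytes and monocytes, which code for granule proteins, pattern receptors and the oxidase of the respiratory burst. The comparison asks what the expression of these programmes looked like when both supports were inhibited at once.

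The libraries held 11122649, 11147953 and 9020916 gene counts with DMSO and 11261893, 8835304 and 6472940 with the combination. Levels are given as CPM, counts per 1000000 counts of the library after scaling, which are relative, so that fewer cells of a kind and less RNA per cell cannot be told apart in these bulk samples. Markers of the labelled myeloid line were present in all 6 libraries, with CD33 at 86.5 to 103 CPM with DMSO and 168 to 185 CPM with the combination, and PTPRC, SPI1, CD4, ITGAX, CD44 and LYZ also detected. The stem cell receptor KIT held 18 counts with DMSO and 2 with the combination and was not tested. Markers of other blood and tissue cells were at or near 0: MS4A1 and HBB had no counts in any of the 6 libraries, and CD3E, EPCAM, ALB and PF4 had at most 1 in a group. The B cell marker CD79A held 17 counts with DMSO and 6 with the combination. The endothelial marker PECAM1, which myeloid cells also carry, lay at 163 to 195 CPM with DMSO and 480 to 494 CPM with the combination. The first principal component of the 6 libraries held 85.3% of the variance and separated the groups.

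Some library properties also moved with the groups. Of the uniquely placed reads, 17.2, 16.6 and 20.4% lay outside annotated exons with DMSO, against 28.5, 32.7 and 36.5% with the combination. The signal recognition particle RNA RN7SL1 took 2.31 to 4.27% of counts with DMSO and 1.17 to 1.66% with the combination. Reads that overlapped more than 1 gene, which were left uncounted, made up 6.43 to 9.45% with DMSO and 4.65 to 5.82% with the combination. For these shares the groups did not overlap, and the two-sided exact permutation test gave p = 0.1 for each, the smallest value that 3 against 3 allows. Their part in the gene results was not tested. A comparison of 2 against 2, without the library highest in RN7SL1 in each group (DMSO 2 and combination 1), reversed no called gene of the lists described below. It cannot show that part, because the remaining groups still differed. RN7SL1 lay at 2.88 and 2.31% against 1.17 and 1.34%, and reads outside exons at 17.2 and 20.4% against 32.7 and 36.5%.

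Short stretches of promoter sequence are shown here for genes at the centre of the groups described below, so that the known recognition motifs can be seen in place. All are from RefSeq on GRCh38.p14, written 5′ to 3′ on the gene's strand, and lie within the 250 bases before the annotated start. Capitals mark every match to the motif named, on either strand. CISH codes for a feedback inhibitor of cytokine signalling and is a classical STAT5 target. Its stretch at chr3:50611833-50612024 on the minus strand holds 4 matches to the STAT motif TTCNNNGAA:

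CISH: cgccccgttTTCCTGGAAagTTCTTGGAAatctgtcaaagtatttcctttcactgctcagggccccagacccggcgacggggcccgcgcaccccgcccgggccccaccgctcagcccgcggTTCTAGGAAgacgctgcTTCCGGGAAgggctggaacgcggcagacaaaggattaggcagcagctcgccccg

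CHAC1, which degrades glutathione, and ASNS, asparagine synthetase, are targets of the stress factor ATF4. Their stretches at chr15:40953221-40953320 on the plus strand and chr7:97872423-97872522 on the minus strand each hold 1 match to the composite motif TGATGNAA:

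CHAC1: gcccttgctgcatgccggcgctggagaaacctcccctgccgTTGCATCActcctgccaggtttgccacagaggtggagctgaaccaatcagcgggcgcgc
ASNS: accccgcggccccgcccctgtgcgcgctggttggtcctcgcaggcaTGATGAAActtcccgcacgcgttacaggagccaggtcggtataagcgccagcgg

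HMGCS1 and DHCR7 code for an early and a late enzyme of cholesterol synthesis, whose promoters are known for CCAAT boxes bound by NF-Y. The stretches at chr5:43313459-43313577 and chr11:71448394-71448493, both on the minus strand, hold 2 matches to CCAAT each:

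HMGCS1: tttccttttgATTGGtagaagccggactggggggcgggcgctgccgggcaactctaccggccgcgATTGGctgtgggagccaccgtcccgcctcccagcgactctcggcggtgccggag
DHCR7: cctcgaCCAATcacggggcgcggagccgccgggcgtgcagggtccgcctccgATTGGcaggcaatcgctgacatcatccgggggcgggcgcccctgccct

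MS4A3, a membrane protein of granulocyte and monocyte progenitors, and RNASE3, the eosinophil cationic protein, are members of the list of primary granule genes described below. Their stretches at chr11:60056422-60056650 and chr14:20891245-20891344, both on the plus strand, hold 2 matches and 1 match to the C/EBP motif TTGCNNAA:

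MS4A3: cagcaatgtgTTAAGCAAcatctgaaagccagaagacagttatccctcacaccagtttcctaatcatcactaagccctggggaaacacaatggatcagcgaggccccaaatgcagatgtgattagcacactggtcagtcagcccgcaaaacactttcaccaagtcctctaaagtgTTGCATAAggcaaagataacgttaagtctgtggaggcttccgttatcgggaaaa
RNASE3: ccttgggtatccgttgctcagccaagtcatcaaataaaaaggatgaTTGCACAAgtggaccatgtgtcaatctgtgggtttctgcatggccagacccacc

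Of 13972 genes tested, 8037 were called changed between the combination and DMSO (57.5%; edgeR's quasi-likelihood test, adjusted p under 0.05). Higher levels with the combination were called for 4074 genes (29.2%) and lower levels for 3963 genes (28.4%). A change beyond 1.5-fold was called for 1919 genes upward (13.7%) and 1626 downward (11.6%). At least 32-fold changes were fitted for 43 called genes upward and 92 downward. The median log2 change over all genes tested was -0.00066. The 3 libraries of each group did not overlap for 4465 genes upward (31.96%) and 4307 downward (30.8%). With so many genes called in each direction, the count of called members in any group below is read against these shares.

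**Figure D1:**
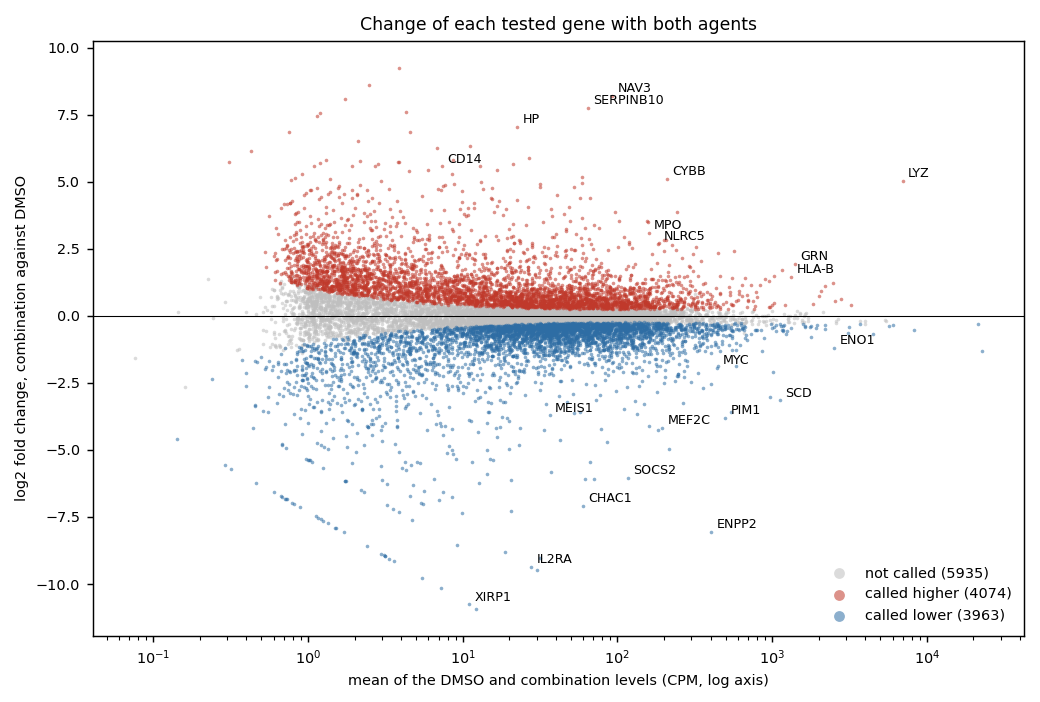
Log2 fold change of every tested gene with the combination against DMSO (vertical axis) by its mean level in both groups in CPM (horizontal axis, log scale), one point per gene, red called higher, blue called lower, grey not called. Most called genes lie within a few log2 units of 0, while a smaller set led by XIRP1, IL2RA and ENPP2 below and NAV3, SERPINB10 and LYZ above lies far from it.

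Single genes of menin and its direct partners moved in both directions. MEN1 codes for menin itself and stood at 40.6, 57.8 and 46.9 CPM with DMSO and at 39.995, 37.4 and 35.2 CPM with the combination. The groups did not overlap, and the log2 change of -0.36 ± 0.13 (SE) had an adjusted p of 0.026, a call that was lost without DMSO 2, combination 2 or combination 3 and with scaling by total counts. KMT2A, whose counts hold reads of the normal and the fused allele alike, lay at 46.8, 46.1 and 50.6 CPM with DMSO and at 80.9, 79.8 and 82.7 CPM with the combination. This was a rise of 1.70-fold (log2 0.76 ± 0.10, adjusted p = 9.3e-06), and it was also higher than with gilteritinib (53.0 CPM) and with MI-3454 (58.1 CPM). WDR5, a core subunit of the methyltransferase complex, fell from 94.2 to 60.5 CPM. Among 11 members of the menin and MLL1 complex, 2 were called higher and 4 lower. Over all genes tested 29.2% were called higher and 28.4% lower, so these counts do not set the complex apart. The test of a change beyond 1.5-fold called none of the 11 members, although the fitted change of KMT2A exceeded that size. The count of lower members was 2 on leaving out either DMSO 1, DMSO 3 or any combination library, and 1 with scaling by total counts. The count of higher members was 1 without any of those same libraries, with RLE scaling, with DESeq2 and with the replicate block. The methyltransferase DOT1L, which the fusion recruits, fell from 432 ± 72.7 to 245 ± 7.61 CPM (SD, n = 3), the one member of 14 in its list that was called beyond 1.5-fold.

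Known targets of the fusion outside the HOXA cluster were among the clearly lower genes. MEF2C, a transcription factor of myeloid and lymphoid progenitors, lay at 386, 328 and 390 CPM with DMSO and at 18.4, 20.4 and 22.2 CPM with the combination. MEIS1, the DNA-binding partner of HOX proteins, lay at 68.1, 62.0 and 73.1 CPM with DMSO and at 4.61, 6.78 and 3.98 CPM with the combination. ZNF521, a zinc finger protein of stem cells, fell from 200 ± 9.47 to 31.9 ± 5.82 CPM (SD, n = 3; log2 -2.64 ± 0.13, adjusted p = 3.5e-11). The levels of these genes in the 2 groups were far apart, and no library came near the other group. All 3 were also lower than with MI-3454 alone, where MEF2C lay at 72.4 CPM, MEIS1 at 10.98 CPM and ZNF521 at 64.6 CPM. With gilteritinib alone they lay at 295, 92.9 and 236 CPM.

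The HOXA cluster, which keeps progenitors from maturing, did not follow that order. HOXA5 lay at 10.3, 11.4 and 12.9 CPM with DMSO and at 2.26, 1.16 and 1.56 CPM with the combination (log2 -2.74 ± 0.24, adjusted p = 5.9e-08). HOXA6 and HOXA3 fell from 11.6 to 2.48 CPM and from 11.7 to 3.14 CPM. With MI-3454 alone HOXA5, HOXA6 and HOXA3 stood at 2.65, 2.22 and 2.46 CPM, and none of these 3 was called different from the combination. Of the 10 tested members, 2 were called lower than with MI-3454 and 8 lower than with gilteritinib, with median log2 differences of 0.01 and -1.43. Over all genes tested, 15.1% were called lower than with MI-3454 and 30.3% lower than with gilteritinib. HOXA9 was one of the 2, at 29.6 ± 2.36 CPM with the combination and 38.3 ± 1.42 CPM with MI-3454 (SD, n = 3; adjusted p = 0.025). HOXA13 was not called, with a log2 change of 0.24. Of 21 tested targets of the fusion outside the cluster, 14 were called lower and 1 higher (median -0.9999). The higher call was lost without DMSO 1, DMSO 3 or any combination library, with RLE scaling and with the replicate block. MYB and LMO2 were not called (log2 -0.09 and 0.03).

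A few other progenitor genes were lower too. GATA2, a transcription factor of stem and mast cell progenitors, lay at 175, 199 and 144 CPM with DMSO and at 30.5, 21.9 and 21.3 CPM with the combination. GATA2 lay at 306 CPM with gilteritinib alone and at 99.5 CPM with MI-3454 alone, and the combination was lower than both. The angiopoietin gene ANGPT1, a ligand of the TEK receptor, fell from 397 counts over the 3 DMSO libraries to 5 over the 3 combination libraries. Of 14 stem and progenitor genes only 4 passed the filter on low counts, with 3 called lower and 1 higher. The higher call was lost without DMSO 1, DMSO 3, combination 1 or combination 2, and in a single fit of all 12 libraries. CD34, KIT, PROM1 and MECOM were among the 10 that were not tested.

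The transcript of the kinase target FLT3 fell. FLT3 lay at 765, 610 and 717 CPM with DMSO and at 193, 191 and 189 CPM with the combination. The 3 combination libraries lay within 5 CPM of each other and far below any DMSO library. MI-3454 alone had FLT3 at 228 ± 24.3 CPM (SD, n = 3), and the log2 difference of -0.25 ± 0.10 from it missed the threshold (adjusted p = 0.083). The receptor kinases AXL and TYRO3 fell from 27.97 to 0.802 CPM and from 4.93 to 0.526 CPM, both also lower than with either agent alone. Of 10 receptor tyrosine kinases tested, 6 were called lower and 3 higher.

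Targets of STAT5 were mostly lower, with different levels under the single agents. PIM1, a kinase induced by cytokine signals, lay at 1004, 970 and 816 CPM with DMSO and at 74.1, 62.1 and 64.5 CPM with the combination. Gilteritinib alone brought it to 50.4 CPM, slightly below the combination (log2 difference 0.42 ± 0.09, adjusted p = 0.0012). SOCS2, a feedback inhibitor, lay at 243, 213 and 235 CPM with DMSO and at 2.87, 3.71 and 4.12 CPM with the combination. For SOCS2 MI-3454 alone gave 15.9 CPM and gilteritinib alone 124 CPM, and the combination was lower than both. CISH, shown above with 4 STAT motifs, lay at 228, 283 and 204 CPM with DMSO and at 44.0, 39.3 and 34.4 CPM with the combination. None of these genes had overlapping groups. The interleukin 2 receptor chain IL2RA held 1706 counts with DMSO and 2 with the combination, a ratio of 775 with a 95% counting interval of 214 to 6407. Gilteritinib alone had IL2RA at 0.028 CPM, which was not called different from the combination. MI-3454 alone had it at 1.08 CPM, and the combination was lower. Of 17 members 12 were called lower and 1 higher, or 2 higher without DMSO 2 (median -1.03), while the factors STAT5A and STAT5B were not called (log2 0.19 and -0.02). CISH was the only one of 12 members with a listed promoter that held the STAT motif, which 6.78% of 27305 promoters hold. Intervals here and below cover counting error only.

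The immediate early genes of the MAPK cascade were lower, but its phosphatase DUSP6 was not. EGR3 lay at 22.8, 28.4 and 24.3 CPM with DMSO and at 0.261, 0.529 and 0.142 CPM with the combination. EGR1 lay at 37.4, 63.6 and 48.9 CPM with DMSO and at 11.6, 11.9 and 9.52 CPM with the combination. EGR2 and the early response gene IER3 fell from 2.38 to 0.587 CPM and from 37.7 to 13.1 CPM. DUSP6, which removes phosphate from ERK, rose from 22.4, 21.5 and 16.9 CPM to 41.6, 38.005 and 41.5 CPM. For each of these 5 genes the groups did not overlap. Of 18 members tested 13 were called lower and 2 higher (median -0.91). DUSP6 with the combination was not called different from either agent alone (48.7 CPM with MI-3454 and 34.9 CPM with gilteritinib). The AP-1 subunit JUND fell from 1707, 1916 and 1530 CPM to 244, 200 and 185 CPM, and lay between these at 692 CPM with gilteritinib and 700 CPM with MI-3454.

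Other signalling genes rose. FGR, a SRC family kinase of mature myeloid cells, lay at 3.82, 3.89 and 3.35 CPM with DMSO and at 117, 104 and 123 CPM with the combination, with 38.6 CPM under MI-3454 and 3.41 CPM under gilteritinib. Of 14 cytokine receptors tested 10 were called higher and 1 lower. Among them were CSF3R, the receptor of the granulocyte growth factor G-CSF, which rose from 299 to 803 CPM, and IL10RA, from 18.8 to 66.6 CPM. IL13RA1, a chain of the interleukin 13 receptor, rose from 41.8 to 121 CPM. The shared receptor chain CSF2RB was not called (log2 -0.11).

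**Figure D2:**
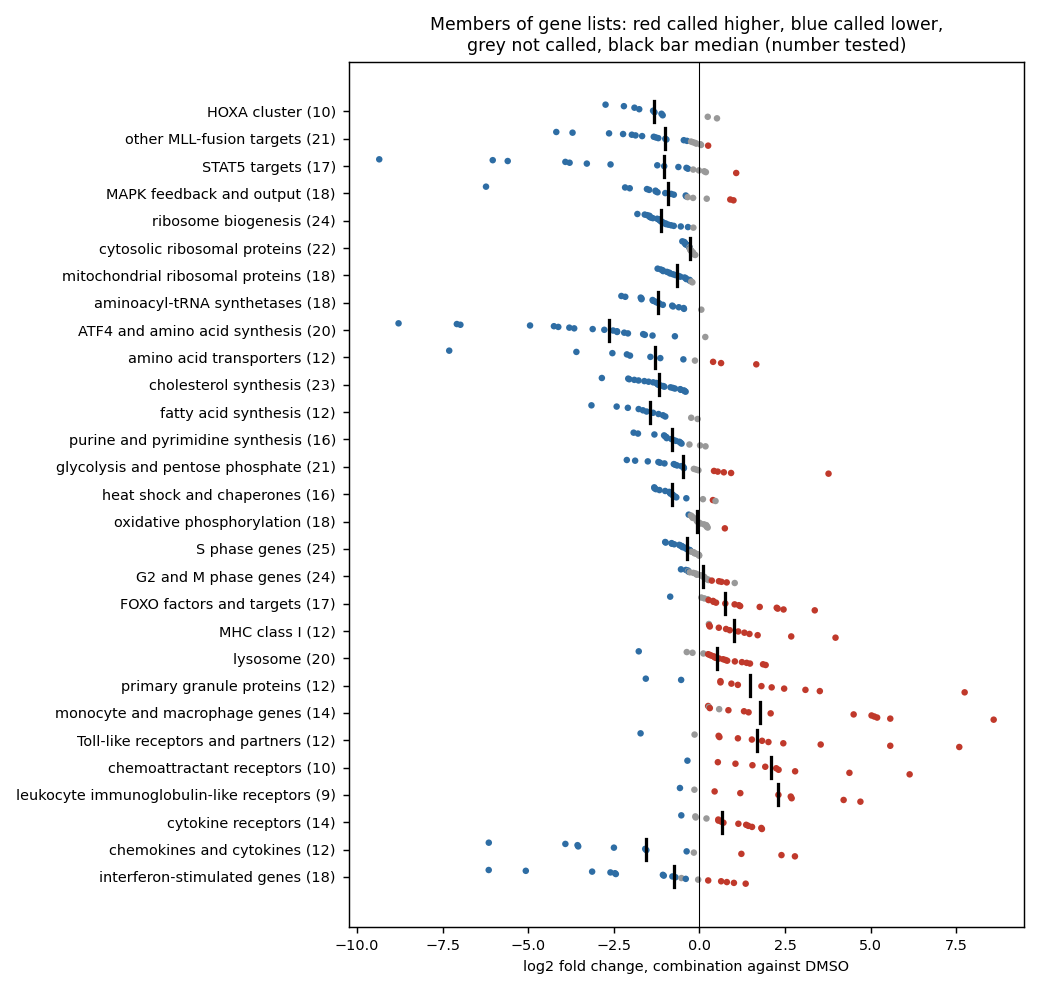
Log2 fold change with the combination against DMSO (horizontal axis) of each tested member of 29 gene lists (rows), with the number tested in brackets, the median as a black bar and the call as the colour. Lists of biosynthesis lie left of 0, with ATF4 and amino acid synthesis farthest (median -2.65), and lists of mature myeloid genes lie right of it.

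MYC and several groups of growth genes were lower, while other members of the MYC network were not. MYC, the transcription factor that drives ribosome production, lay at 656, 800 and 649 CPM with DMSO and at 206, 179 and 161 CPM with the combination. Each agent alone gave intermediate levels, 462 ± 34.1 CPM with gilteritinib and 479 ± 39.0 CPM with MI-3454 (SD, n = 3), and the combination was lower than both (adjusted p = 1.1e-07 and 8.9e-06). Its partner MAX was not called (log2 -0.11), and MXD3, which competes with MYC for MAX, rose from 10.4 to 24.4 CPM. Its relatives MYCL and MLXIP also rose, from 11.2 to 23.9 CPM and from 138 to 246 CPM. Of the 11 tested members of the network 5 were called higher and 1, MYC, lower (median 0.15).

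Ribosome biogenesis genes code for the factors that make and fold ribosomal RNA, and 23 of 24 were called lower, 20 beyond 1.5-fold and none higher (median -1.13). The nucleolar protein LYAR lay at 28.6, 25.5 and 30.4 CPM with DMSO and at 7.22, 8.05 and 8.95 CPM with the combination. NOLC1, a chaperone of small nucleolar particles, lay at 246, 279 and 281 CPM with DMSO and at 95.9, 87.3 and 82.3 CPM with the combination. BOP1 and NIP7, both needed for the large subunit, fell from 366 to 133 CPM and from 60.8 to 21.0 CPM. The groups of these 4 genes did not overlap. Against MI-3454 alone 22 of the 24 were called lower, where 15.1% of all genes tested were lower and 14.1% higher. Against gilteritinib alone 23 were called lower, where 30.3% of all genes were lower and 30.1% higher. NOP2 was the exception against DMSO (log2 -0.18, adjusted p = 0.63), at the low level of 2.08 and 1.86 CPM. Its level, like those of ASNS and ALDOA below, is uncertain where other annotated genes overlap it. None of the 19 listed promoters of this group held the E-box CACGTG, which 6.49% of all promoters hold.

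The proteins of the cytosolic ribosome themselves moved less. RPL4 and RPL3 fell from 2556 to 1805 CPM and from 3601 to 2669 CPM. Of 22 members 10 were called lower and none higher, none beyond 1.5-fold, with a median of -0.28. That count depended on single libraries, with 6 without DMSO 1, 17 without DMSO 3, 4 without combination 2 and 3 without combination 3. Reads of these genes can be lost to near-identical pseudogenes. Of 18 mitochondrial ribosomal proteins 16 were called lower (median -0.66), led by MRPL1, from 27.9 to 11.9 CPM. The elongation factor EEF2 fell from 9674 ± 1754 to 6786 ± 828 CPM (SD, n = 3). EEF1A1, the other main elongation factor, had 23606 CPM with DMSO and 19264 CPM with the combination (adjusted p = 0.044), a call lost without DMSO 1, DMSO 3, combination 2 or combination 3, with scaling by total counts and with small and mitochondrial RNA left out. Of 18 subunits of oxidative phosphorylation, 1 was called higher and 1 lower (median -0.06). The count of lower subunits was 0 without combination 2 or combination 3 and 2 without DMSO 2 or combination 1, and the count of higher ones was 2 without DMSO 1 or DMSO 2.

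Genes under ATF4, the factor that answers amino acid shortage and unfolded protein, had the lowest median of the lists with 10 or more tested members. CHAC1 lay at 122, 139 and 94.7 CPM with DMSO and at 0.522, 1.48 and 0.568 CPM with the combination. DDIT4, an inhibitor of mTORC1, lay at 417, 491 and 347 CPM with DMSO and at 15.998, 14.5 and 9.38 CPM with the combination. The hormone STC2 held 1152 counts with DMSO and 2 with the combination, a ratio of 524 with a 95% counting interval of 145 to 4328. CBS, which makes cystathionine from serine, held 326 counts with DMSO and 2 with the combination, a ratio of 148 with an interval of 40.7 to 1229. Single agents lay between these levels, with CHAC1 at 10.8 CPM under gilteritinib and 36.1 CPM under MI-3454, and DDIT4 at 59.2 and 81.4 CPM. Of 20 members tested 19 were called lower, 18 beyond 1.5-fold and none higher, or 1 higher without DMSO 2 (median -2.65). Against MI-3454 18 were called lower, and against gilteritinib 18 lower and 1 higher. CEBPB was not called (log2 0.17). The composite motif TGATGNAA was found in 3 of 17 listed promoters (ATF3, ASNS and CHAC1), against 3.19% of all promoters.

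Related enzymes and carriers of amino acids were lower as well. SLC7A5, the carrier of large neutral amino acids, lay at 947, 1110 and 943 CPM with DMSO and at 92.4, 78.0 and 77.3 CPM with the combination. SLC1A5, a glutamine carrier, and SLC7A1, a carrier of arginine and lysine, fell from 691 to 118 CPM and from 540 to 124 CPM. ALDH1L2 and MTHFD2, mitochondrial enzymes of folate metabolism, fell from 149 to 8.05 CPM and from 449 to 91.5 CPM. The folate enzyme SHMT1 was not called, with a log2 change of -0.11. Of the aminoacyl-tRNA synthetases, which charge tRNAs, 17 of 18 were called lower and none higher (median -1.22), led by GARS1 (337 to 69.2 CPM) and AARS1 (401 to 89.2 CPM). Of these 18, 16 were called lower than with MI-3454 and 15 lower than with gilteritinib. QARS1 was not called (log2 0.05).

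All 23 tested genes of cholesterol synthesis were called lower with the combination, 16 of them beyond 1.5-fold (median -1.20). HMGCS1, which makes the precursor of mevalonate, lay at 373, 262 and 315 CPM with DMSO and at 43.1, 41.7 and 46.9 CPM with the combination. INSIG1, the sterol sensor's anchor in the endoplasmic reticulum, lay at 502, 357 and 449 CPM with DMSO and at 108, 112 and 94.8 CPM with the combination. DHCR7 fell from 201 to 47.3 CPM and LSS, lanosterol synthase, from 218 to 58.2 CPM. The groups of these 4 genes did not overlap, and 20 of the 23 had no overlap. Against MI-3454 20 were called lower and against gilteritinib 21. Of the 18 members with a listed promoter 15 held CCAAT, against 33.0% of all promoters, and SREBF2 alone held the sterol response motif TCACNCCAC, against 0.875%.

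Genes of fatty acid synthesis were also mostly lower. SCD, which makes oleate, lay at 2279, 1797 and 1986 CPM with DMSO and at 258, 231 and 191 CPM with the combination, 8.91-fold lower. Neither agent alone came close to that level, with SCD at 2019 ± 156 CPM under MI-3454 and 1526 ± 57.8 CPM under gilteritinib (SD, n = 3). FADS2 and FADS1, the desaturases of polyunsaturated fatty acids, fell from 243 to 45.2 CPM and from 110 to 31.8 CPM. FADS2 was at 308 CPM under MI-3454 and 273 CPM under gilteritinib. FASN, fatty acid synthase, lay at 1552, 1861 and 1508 CPM with DMSO and at 428, 383 and 342 CPM with the combination. Of 12 members 10 were called lower, all beyond 1.5-fold, and the elongases ELOVL1 and ELOVL5 were not called (log2 -0.06 and -0.24).

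Nucleotide synthesis, glycolysis and chaperones showed smaller shifts. PPAT and PAICS, enzymes of the purine pathway, fell from 53.0 to 13.9 CPM and from 277 to 79.7 CPM, and 13 of 16 members of nucleotide synthesis were called lower and none higher. Of 21 genes of glycolysis and the pentose phosphate pathway 13 were called lower and 5 higher. LDHA, lactate dehydrogenase, fell from 917 to 249 CPM, and the glucose carrier SLC2A3 from 206 to 47.3 CPM. The enolase ENO1 fell from 3630, 3825 and 3100 CPM to 1735, 1482 and 1375 CPM. Hexokinase HK3, the myeloid form, moved the other way, from 1.0005, 2.09 and 1.30 CPM to 19.4, 23.0 and 17.8 CPM. Of 16 chaperones 13 were called lower and 1 higher (2 higher without DMSO 2), with HSPD1 at 527 and 211 CPM and HSPA8 at 1224 and 492 CPM. PKM and ALDOA were not called (log2 -0.10 and -0.03).

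**Figure D3:**
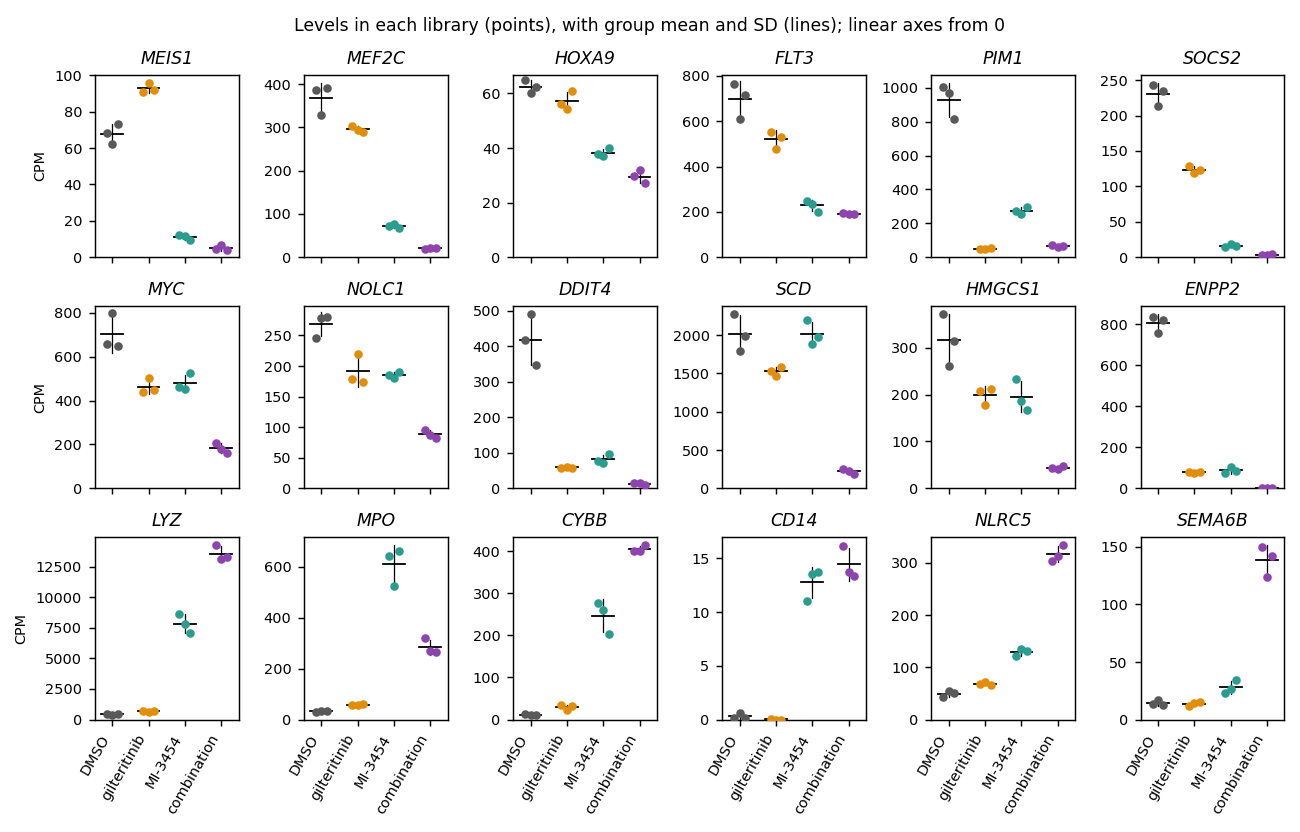
Levels of 18 genes in CPM (vertical axes, linear from 0) in each of the 3 libraries per group (points) with the group mean and SD (lines), for DMSO, gilteritinib, MI-3454 and the combination. SCD averaged 1526 CPM with gilteritinib and 2019 CPM with MI-3454 and was at 191 to 258 CPM with both, ENPP2 was at 2.13 to 3.39 CPM with both, and MPO was lower with the combination than with MI-3454 alone.

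The cell cycle genes divided by phase. MCM6, a subunit of the replicative helicase, lay at 168, 147 and 193 CPM with DMSO and at 89.6, 80.3 and 83.5 CPM with the combination, and the licensing factor CDT1 fell from 107 to 53.6 CPM. Of 25 S phase genes 17 were called lower and none higher (median -0.38), and MCM3, MCM5 and CCNE1 were not called (log2 -0.08, -0.01 and -0.01). MKI67, the proliferation antigen, instead lay at 291, 293 and 280 CPM with DMSO and at 536, 475 and 490 CPM with the combination. CENPF rose from 133 to 208 CPM and CDC20 from 50.4 to 74.6 CPM, while the kinase CDK1 fell from 39.97 to 27.5 CPM. Of 24 genes of G2 and M phase 4 were called higher and 4 lower (median 0.10), and the count of lower ones was 2 without DMSO 1, combination 2 or combination 3 and 1 with scaling by total counts. Against gilteritinib alone, 20 of these 24 and 24 of the 25 S phase genes were called lower. The motif TTTGAA, found in promoters of mitotic genes, lay in 10 of 20 listed promoters of the G2 and M group, against 13.6% of all promoters.

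The cyclins that start the cycle were among the lower genes. CCND2 lay at 277, 241 and 294 CPM with DMSO and at 27.3, 30.2 and 25.3 CPM with the combination. CCND1 held 180 counts with DMSO and 3 with the combination, a ratio of 54.5 with a 95% counting interval of 18.4 to 267, and CCND3 was not called (log2 -0.18). Their kinase CDK6 fell from 774 to 320 CPM. CDKN1A, which codes for the inhibitor p21, fell from 349, 353 and 281 CPM to 135, 130 and 112 CPM. Of 14 members of this G1 list 9 were called lower and 1 higher.

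Survival genes moved in both directions. BCL2 lay at 398, 364 and 442 CPM with DMSO and at 88.2, 81.6 and 86.2 CPM with the combination, below its level with MI-3454 (163 CPM) or gilteritinib (296 CPM) alone. BBC3, the BH3-only protein PUMA, fell from 67.3 to 33.2 CPM, while the BH3-only gene BMF rose from 82.6 to 156 CPM. BCL2A1 rose from 2.31 to 5.39 CPM. BCL2L1, BAX, BAK1 and BCL2L11 were not called (log2 0.14, -0.01, -0.21 and -0.19). Genes held back by PI3K and AKT through FOXO factors were mostly higher, with 13 of 17 called higher and 1 lower (median 0.75). SESN3, a sestrin that restrains mTORC1, lay at 15.7, 10.1 and 11.4 CPM with DMSO and at 122, 128 and 136 CPM with the combination. The insulin receptor substrate IRS2 rose from 74.0 to 406 CPM, and neither was called different from MI-3454 alone (97.4 and 398 CPM). FOXO1 itself rose from 2.92 to 14.4 CPM, above its level with either agent alone.

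Genes of granulocytes and monocytes were mostly higher. LYZ, lysozyme, lay at 446, 373 and 425 CPM with DMSO and at 14229, 13089 and 13247 CPM with the combination, a 32.6-fold rise (log2 5.03 ± 0.14, adjusted p = 7e-14). MI-3454 alone had LYZ at 7847 ± 813 CPM and gilteritinib alone at 683 ± 84.4 CPM (SD, n = 3), and the combination was higher than both. CYBB, the catalytic subunit of the phagocyte oxidase, lay at 12.1, 11.5 and 11.6 CPM with DMSO and at 400, 399 and 413 CPM with the combination. The coreceptor of bacterial lipopolysaccharide, CD14, lay at 0.182, 0.569 and 0.108 CPM with DMSO and at 16.2, 13.8 and 13.4 CPM with the combination. All combination libraries were above all DMSO libraries for LYZ, CYBB and CD14. Of 9 tested genes of the phagocyte oxidase 6 were called higher, 2 of them beyond 1.5-fold, and 2 lower (median 0.46). The count of lower ones was 1 without DMSO 1, DMSO 2, combination 2 or combination 3. Against gilteritinib alone 4 were called higher and 2 lower (median -0.01). FCN1, a secreted lectin of monocytes, had no counts with DMSO and 137 with the combination, at least 50.2-fold higher. MNDA, a nuclear antigen of myeloid cells, rose from 3.15 to 115 CPM. Of 14 tested monocyte and macrophage genes 12 were called higher and none lower (median 1.76), and FCGR1A was not called (log2 0.28). Against MI-3454 alone 5 were called higher and 4 lower, and against gilteritinib 12 higher and 1 lower. CD68, CD163, MRC1 and MSR1 were among the 7 that were not tested.

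Granule proteins rose with a different order among the treatments. MPO, myeloperoxidase, lay at 31.5, 33.2 and 35.3 CPM with DMSO and at 319, 270 and 265 CPM with the combination. MI-3454 alone gave 609 ± 75.3 CPM, higher than the combination (log2 difference -1.09). BPI, which binds bacterial lipopolysaccharide, lay at 24.1, 28.8 and 23.7 CPM with DMSO and at 335, 300 and 240 CPM with the combination, and was not called different from MI-3454 alone (335 CPM). MS4A3, whose promoter stretch with C/EBP motifs is shown above, lay at 23.1, 19.9 and 21.0 CPM with DMSO and at 114, 117 and 125 CPM with the combination. RNASE3 rose from 10.3, 10.8 and 9.07 CPM to 49.9, 42.0 and 38.1 CPM. The proteases ELANE and AZU1 rose from 1392 to 3026 CPM and from 1420 to 2710 CPM, and neither differed by the test from its level with gilteritinib alone (2707 and 2877 CPM). Of 12 genes in the list of primary granule proteins 10 were called higher and 2 lower against DMSO (median 1.46), but 1 higher and 4 lower against MI-3454. The list also holds the membrane protein MS4A3 and the eosinophil protein RNASE3. The motif TTGCNNAA lay in 5 of 7 listed promoters of this list (MS4A3, RNASE3, RNASE2, AZU1 and PRTN3), against 9.13% of all promoters.

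Genes of later granules were mostly below the filter on low counts. Of 14 such genes 4 passed the filter, and all 4 were called higher. HP, haptoglobin, lay at 0.273, 0.285 and 0.432 CPM with DMSO and at 51.3, 41.3 and 41.2 CPM with the combination. CHI3L1, a chitinase-like protein, rose from 147 to 751 CPM, MMP9 from 0.236 to 2.54 CPM and ORM1 from 2.05 to 11.9 CPM. LTF, CAMP, LCN2, MMP8 and OLFM4 were not tested. The transcription factors of these programmes moved both ways, with 8 of 19 called higher and 5 lower. Over all genes tested 29.2% were called higher and 28.4% lower. Beyond 1.5-fold 3 factors were called higher and 3 lower. CEBPD rose from 64.6, 65.7 and 58.4 CPM to 386, 314 and 315 CPM, and CEBPE, which drives later granules, rose from 1.96 to 8.26 CPM. SPI1, CEBPB and JUNB were not called (log2 0.12, 0.17 and -0.15). The count of higher factors was 5 without DMSO 1 and 4 without DMSO 3, combination 1 or combination 2.

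Receptors of innate immunity were mostly higher. TLR4 lay at 16.5, 13.9 and 18.3 CPM with DMSO and at 176, 196 and 193 CPM with the combination, and TLR2 at 30.8, 20.6 and 28.9 CPM and at 132, 147 and 160 CPM. TLR8 held 1 count with DMSO and 246 with the combination, a ratio of 271 with a 95% counting interval of 48.1 to 10733. Both groups were well apart for TLR4 and TLR2, and neither gene was called different from MI-3454 alone. Of 12 Toll-like receptors and partners 10 were called higher and 1 lower (median 1.68). Of 10 chemoattractant receptors 9 were called higher and 1 lower (median 2.08), a lower call that was lost without DMSO 1, combination 2 or combination 3 and with scaling by total counts. CCR2, the receptor that draws monocytes out of marrow, lay at 62.0, 50.2 and 56.4 CPM with DMSO and at 283, 269 and 285 CPM with the combination. CXCR2, the receptor for interleukin 8, rose from 5.85 to 40.8 CPM, above gilteritinib (15.2 CPM) and MI-3454 (15.5 CPM), and FPR1, the receptor for formyl peptides, from 0.218 to 4.96 CPM.

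The leukocyte immunoglobulin-like receptors, which tune activation of myeloid cells, followed the same direction. LILRB3 lay at 0.364, 0.854 and 0.324 CPM with DMSO and at 13.3, 13.1 and 15.2 CPM with the combination. LILRA2 rose from 17.9 to 116 CPM and LILRB2 from 3.35 to 21.3 CPM. Of 9 members tested 7 were called higher and 1 lower, and 6 were called higher than with MI-3454 alone. These genes are near copies of each other, so their reads can be lost or shared. The Fc receptors split. FCAR, the receptor for immunoglobulin A, rose from 0.637, 0.759 and 1.30 CPM to 53.6, 51.9 and 53.1 CPM, and FCGRT, which recycles immunoglobulin G, rose from 62.0 to 391 CPM. FCGR2B, an inhibitory Fc receptor, fell from 5.77 to 1.32 CPM. The integrin gene ITGAM, often used to read myeloid maturation, rose from 72.1, 73.7 and 68.7 CPM to 96.2, 92.7 and 92.5 CPM, which is 1.31-fold.

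The calcium-binding proteins S100A8 and S100A9 rose from 0.778 to 25.4 CPM and from 0.516 to 25.5 CPM. With MI-3454 alone they lay at 8.57 and 9.75 CPM and with gilteritinib alone at 0.205 and 0.419 CPM, and the combination was higher than both. The proton channel HVCN1 fell from 95.1 to 47.2 CPM. Of 20 lysosomal genes 16 were called higher and 1 lower (2 lower without DMSO 2 or DMSO 3), with a median of 0.52. GRN, progranulin, lay at 535, 697 and 517 CPM with DMSO and at 2484, 2116 and 2076 CPM with the combination. CTSD, cathepsin D, rose from 50.4 to 182 CPM, and CTSH, cathepsin H, fell from 34.6 to 10.2 CPM.

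Antigen presentation moved in opposite directions for its 2 classes. NLRC5, the transactivator of MHC class I genes, lay at 43.3, 54.6 and 50.4 CPM with DMSO and at 304, 312 and 335 CPM with the combination. HLA-B lay at 699, 771 and 664 CPM with DMSO and at 2166, 1901 and 1800 CPM with the combination. HLA-F rose from 1.11 to 18.0 CPM. The groups of NLRC5 and HLA-B did not overlap. Of 12 class I genes 11 were called higher and none lower (median 1.01), 7 were called higher than with MI-3454 and 10 higher than with gilteritinib. Of the class II genes 4 of 6 were called lower and none higher. HLA-DRA lay at 30.8, 25.6 and 28.5 CPM with DMSO and at 0.522, 0.423 and 0.426 CPM with the combination, and gilteritinib alone gave 0.239 CPM. The class II transactivator CIITA was not called against DMSO (log2 -0.47, adjusted p = 0.060). HLA genes have near-identical copies and many alleles, and their counts are uncertain.

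Interferon-stimulated genes and chemokines included strong falls. IFIT1, which binds foreign RNA, lay at 8.64, 7.02 and 7.13 CPM with DMSO and at 0.261, 0.318 and 0 CPM with the combination. IFIT2 fell from 31.1 to 3.58 CPM, and neither was called different from MI-3454 alone (0.362 and 4.08 CPM). Of 18 interferon-stimulated genes 11 were called lower and 5 higher, the latter 3 without combination 1. The cytokine gene OSM fell from 21.2 to 1.37 CPM, CSF1 from 6.87 to 0.563 CPM and CCL3 from 12.6 to 1.02 CPM. Of 12 chemokines and cytokines 8 were called lower and 3 higher (median -1.57).

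Surface antigens used to follow or target leukaemia cells changed in both directions, with 6 of 12 called higher and 4 lower. Over all genes tested 29.2% were called higher and 28.4% lower. CLEC12A lay at 1.18, 0.664 and 1.08 CPM with DMSO and at 22.9, 25.3 and 29.98 CPM with the combination. ANPEP, which codes for CD13, rose from 1.86 to 31.4 CPM, and CD9 fell from 9.66 to 1.19 CPM. CD38 was not called against DMSO (log2 0.20), although it was higher than with either agent alone (22.1 CPM with MI-3454, 32.9 CPM with gilteritinib). The checkpoint ligand CD276 held 445 counts with DMSO and 0 with the combination, at least 135-fold lower. VSIR, the checkpoint protein VISTA, rose from 105 to 248 CPM. Eosinophil peroxidase, EPX, fell from 37.8 to 6.71 CPM and lay at 145 CPM with gilteritinib alone, and SPIB, a factor of plasmacytoid dendritic cells and B cells, fell from 22.4 to 0.499 CPM.

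The largest rises by fold change were in genes that were almost silent with DMSO. NAV3, a microtubule regulator at 77324641-78213008 on chromosome 12 (GRCh38), lay at 0.546, 0.759 and 0.540 CPM with DMSO and at 192, 182 and 179 CPM with the combination (log2 8.19 ± 0.17). SERPINB10, a protease inhibitor of marrow cells on chromosome 18 at 63897174-63936111, lay at 0.364, 0.569 and 0.864 CPM with DMSO and at 125, 129 and 131 CPM with the combination. Its neighbour SERPINB2, at 63871692-63903890, had 0 counts with DMSO and 215 with the combination, at least 78.8-fold higher. The annotated spans of these 2 serpins overlap. SERPINA1, which codes for alpha-1 antitrypsin, rose from 0.160 to 13.4 CPM, and LRRK2, a kinase of myeloid cells, from 0.293 to 17.0 CPM. The prolactin receptor PRLR rose from 0.257 to 22.1 CPM. The potassium channel KCNJ2 held 2 counts with DMSO and 253 with the combination, a ratio of 139 with an interval of 38.1 to 1155. With MI-3454 alone NAV3 was at 95.9 CPM, SERPINB10 at 72.1 CPM and PRLR at 10.5 CPM, and the combination was higher than that for all 3.

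Some of the genes with the largest fitted falls had no counts left, so that their fold is a lower bound and cannot be ranked. PKDCC, a secreted tyrosine kinase, held 766 counts with DMSO and 0 with the combination, at least 232-fold lower. XIRP1, an actin-binding protein, held 685 and 0, at least 208-fold lower. CAVIN1, a coat protein of caveolae, held 345 and 0, at least 105-fold lower. The activin subunit INHBE, the filament protein NES and the protease ADAMTS14 also had 0 counts with the combination and were at least 67.6-fold, 63.6-fold and 59.7-fold lower. ADM2, a peptide of the calcitonin family, held 1869 and 2 counts, a ratio of 849 with an interval of 235 to 7019. ALDH1A3, which makes retinoic acid, held 1935 and 3 counts, a ratio of 586 with an interval of 200 to 2845.

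Among protein-coding genes, LYZ, AHNAK, GRN, ELANE, AZU1 and HLA-B gained the most CPM, and EEF1A1, EEF2, ACTG1, ENO1, SCD and JUND lost the most. AHNAK, a giant scaffold protein, lay at 1638, 1387 and 1438 CPM with DMSO and at 3434, 3496 and 3401 CPM with the combination. ACTG1, cytoplasmic actin, lay at 5460, 6113 and 4933 CPM with DMSO and at 3839, 3412 and 3148 CPM with the combination. The groups of both genes did not overlap.

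Both agents together were then compared with each agent alone, which shows where the combination differed from either one. No doses are given, and every combination library had a larger share of reads outside exons than any single-agent library. The part of either in these differences was not tested. Against MI-3454, 1972 genes were called higher and 2103 lower, and against gilteritinib 4210 and 4229. The first pair of counts depended on single libraries, with 1169 higher and 1287 lower without combination 2, 1158 and 1306 without combination 3, and 1261 higher without MI-3454 1. By both tests 1792 genes were called higher and 1795 lower than with either agent alone. The 2 comparisons share the combination libraries.

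**Figure D4:**
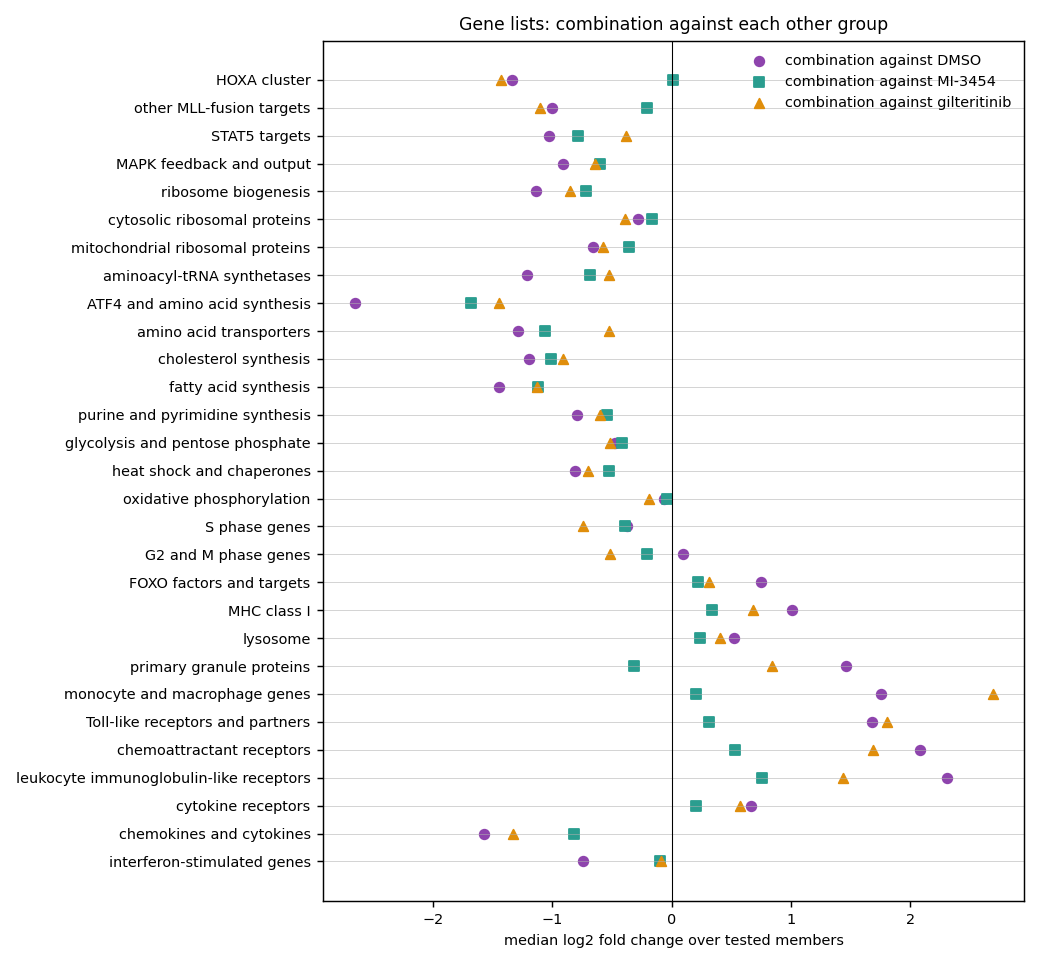
Median log2 fold change over the tested members of each gene list (rows) for the combination against DMSO (circles), MI-3454 (squares) and gilteritinib (triangles). For the HOXA cluster, MI-3454 alone lies with the combination (square near 0), for ATF4 and amino acid synthesis all 3 medians are below -1.4, and for primary granule proteins the square lies below 0 (-0.31).

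Among genes beyond both single agents, ENPP2, which codes for autotaxin, lay at 838, 757 and 822 CPM with DMSO and at 3.39, 3.28 and 2.13 CPM with the combination. Each agent alone left it at 79.7 ± 2.24 CPM (gilteritinib) and 87.7 ± 16.3 CPM (MI-3454; SD, n = 3). Genes of this paragraph and the next were chosen for no overlap between the combination and either single agent. That separation was therefore set by the choice and is not a further result. The phosphatase DUSP8 held 429 counts with DMSO and 3 with the combination, a ratio of 130 with an interval of 44.2 to 633, and stood at 13.2 and 6.92 CPM with gilteritinib and MI-3454. PKDCC, XIRP1, CD276 and ADM2 were also lower than with either agent alone, with 0 to 2 combination counts that allow no ranking. XIRP1 was at 14.2 CPM with gilteritinib and 3.14 CPM with MI-3454.

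Other genes were higher with both agents than with either one. SEMA6B, a semaphorin, lay at 13.4, 16.7 and 12.3 CPM with DMSO and at 150, 124 and 142 CPM with the combination, against 13.8 CPM with gilteritinib and 28.1 CPM with MI-3454. IL31RA, a receptor of monocytes for interleukin 31, lay at 2.18, 2.18 and 2.27 CPM with DMSO and at 21.5, 16.9 and 22.6 CPM with the combination, against 1.69 and 2.12 CPM with the single agents. OLR1, a receptor for oxidised lipoprotein, rose from 0.478 to 13.4 CPM, against 0.105 and 1.88 CPM. For SEMA6B and IL31RA no combination library came near any DMSO library. SGSH, a lysosomal sulfatase, rose from 1.62 to 6.51 CPM.

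Gene classes differed in the direction of their calls. Of 11487 protein-coding genes 24.8% were called higher and 32.05% lower, whereas of 507 lincRNA genes 49.3% were higher and 13.6% lower. Antisense genes had 49.0% higher and 8.79% lower, and sense intronic genes 70.1% higher and 5.08% lower (median 1.26). Genes of these classes often lie in or across introns of coding genes. The share of reads outside exons was larger in each combination library than in any library of the other groups. The part of that share in the class counts was not tested. Total counts in lncRNA genes took 1.76 to 2.13% with DMSO and 1.91 to 2.49% with the combination (two-sided exact permutation p = 0.2).

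**Figure D5:**
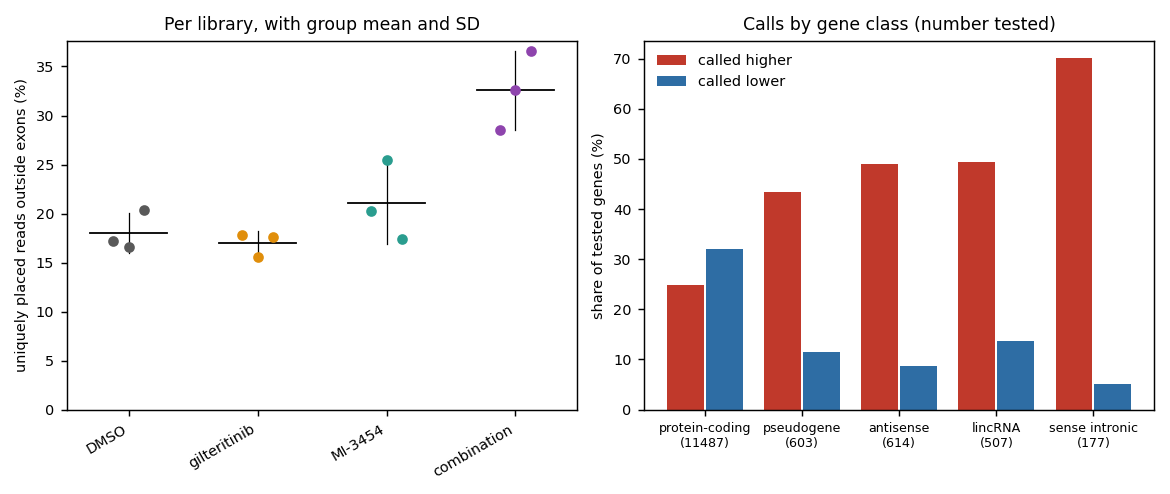
Left, share of uniquely placed reads outside annotated exons in percent for each library (points) with the group mean and SD (lines), where the combination libraries lie at 28.5 to 36.5% and all others at 15.6 to 25.5%. Right, share of tested genes called higher (red) or lower (blue) with the combination against DMSO in 5 gene classes, with sense intronic genes at 70.1% higher.

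Some single noncoding genes also changed by many fold. SOCS2-AS1, antisense to SOCS2, lay at 16.7, 16.2 and 13.1 CPM with DMSO and at 0.522, 0.423 and 0.284 CPM with the combination. IL12A-AS1 fell from 10.0 to 0.199 CPM. MIR124-1HG, the host of a microRNA, rose from 1.82, 1.71 and 2.48 CPM to 51.6, 64.3 and 66.6 CPM, with 19.8 CPM under MI-3454. ENSG00000257764, at 69353493-69354225 on chromosome 12 and within the span of LYZ, rose from 0.566 to 16.9 CPM. Without a stated strand setting, reads of an antisense gene and of its partner cannot be told apart, and the levels of SOCS2-AS1 and ENSG00000257764 are uncertain for that reason.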

How the data were processed

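RNA of 12 MOLM-13 cultures was sequenced after ribosomal RNA depletion and TruSeq library preparation, per the labels' protocols. The authors deposited raw read counts for 60668 genes in each library, and the 5 summary counts beneath them were not used. GRCh38 is the build in the submitters' processing notes, which list, with no roles, HTSeq 0.11.2, STAR 2.7.1a, cutadapt 2.1 and DESeq2. Annotation release and strand setting: not given in the sources used here. Therefore antisense, overlapping and near-identical genes are uncertain, and reads assigned to more than 1 gene are missing from their levels.

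Symbols matched 60295 genes, and biotypes and positions came from GENCODE 29 on GRCh38 (58516 matched). Where entries shared a symbol, 1194 of them kept their identifier. Of 30849 genes with at least 1 count, edgeR's filterByExpr with the 4 groups over 12 libraries kept 13972. In R 4.3.3, edgeR 4.0.16 (TMM scaling, glmQLFit, glmQLFTest) compared the 3 combination libraries with the 3 DMSO libraries, and separately with each single agent. A gene was called at a Benjamini-Hochberg adjusted p under 0.05, and glmTreat tested changes beyond 1.5-fold. SE was derived from the log2 change and its F value. CPM use TMM scaling over 12 libraries, with SD over n = 3. Where a group had 0 counts, the fold is a lower bound against 3 counts for the whole group. Where it had 1 to 3, the ratio carries an exact 95% interval for counting error.

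The members and the 51 gene lists (820 entries, 819 matched) were chosen with earlier results of these data known, and the lists are described by counts and medians. Named genes are 11 anchors, the largest changes in fold (at least 5 CPM, no overlap between groups), in CPM, among lncRNA genes and beyond both single agents, and up to 4 called members of each list. List members not called may be named. CISH, ASNS, RNASE3, ATF3 and SREBF2 were named for their motifs, after their values were seen. Motifs were searched on both strands in the 250 bases before each RefSeq start. The code was tested on simulated data. Alternatives were RLE and total-count scaling, DESeq2 1.42.0, other filters, one fit of all 12 libraries, the replicate block, each library left out, and small RNA left out. Some items are not reported here.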

Additional observations from a re-analysis of the deposited data

How the results depend on the processing

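Among the 684 genes in the lists or named, none that was called in the main fit or in the alternative reversed its direction. This held for each of the 16 alternatives run against DMSO, although the filter on the 6 libraries alone covered 679 of these genes. Changes of sign in genes called in neither fit were not counted. Requiring a change beyond 1.5-fold left 3545 of 8037 calls, 1919 higher and 1626 lower. Against DMSO, leaving out one library gave 6802 to 8558 calls, 3484 to 4216 higher and 3318 to 4342 lower. Against MI-3454 it gave 2456 to 5074 calls, 1158 to 2404 higher and 1287 to 2670 lower, with the lowest values without combination 2 or combination 3. Against gilteritinib it gave 7270 to 8298. DESeq2 called 7492, 3600 and 7567 genes in the 3 comparisons, and without a filter 9115, 4519 and 9403 were called. Scaling by total counts moved the median of all genes against DMSO by 0.10 on the log2 scale and gave 4626 higher and 3193 lower. It moved the share of calls that were higher from 48.4 to 63.2% against MI-3454 and from 49.9 to 61.5% against gilteritinib. With the replicate number as a block (replicate block) 8181, 3039 and 8204 genes were called. Same-numbered combination and DMSO libraries deviated with correlations of -0.05, -0.06 and 0.19, which showed no clear pairing by number. With 3 libraries per group such correlations cannot exclude a pairing. Not every library correlated best with its own number (combination 1 with DMSO 2, 0.25). With MI-3454 or gilteritinib no same-numbered correlation was over 0.1. Depths of 6472940 to 11261893 counts limit what can be seen of genes with few counts.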

Other observations

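Genes outside the programmes above also differed between the combination and DMSO. The serpins, a family of protease inhibitors, had 5 of 8 tested members called higher and 3 lower. SERPINB8 rose from 43.7, 37.4 and 39.4 CPM to 131, 121 and 132 CPM, with no overlap between the groups. Of 10 tested genes of costimulation and checkpoints 4 were called higher and 3 lower, close to the 29.2% and 28.4% of all genes tested. The ligand CD80 held 181 counts with DMSO and 2 with the combination, a ratio of 82.3 with a 95% counting interval of 22.4 to 684, and it was not called different from either single agent. ICOSLG fell from 33.5 to 11.4 CPM, while CD47 and SIRPA, a pair that restrains phagocytosis, rose from 60.9 to 95.8 CPM and from 205 to 373 CPM. CD47, SIRPA and SERPINB8 were chosen after their values were seen.

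Genes of other blood lineages were mostly below the filter, with 4 of 12 genes of mast cells, basophils and eosinophils tested, 3 of 12 of dendritic cells, 2 of 15 of lymphoid cells and 1 of 15 of erythroid cells and megakaryocytes. The mast cell tryptase gene TPSB2, a near-identical copy of TPSAB1, fell from 8.79 to 1.55 CPM and lay at 40.7 CPM with gilteritinib alone. BATF3, a factor of dendritic cells, held 135 counts with DMSO and 1 with the combination, a ratio of 123 with an interval of 21.7 to 4882. NKG7, a granule protein of cytotoxic lymphocytes, rose from 29.4 to 55.5 CPM.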
